A study of Caenorhabditis elegans with 20 samples.

Results

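The sperm protein genes are those of the *msp*, *ssp*, *nspd*, *ssq* and *sss* families, and their RNA was measured in whole *C. elegans*. They were taken as every probe set whose single annotated symbol is one of these 5 family names followed by a number, which gave 27 of the 29317 probe sets. The families contributed 4 *msp* genes, 11 *ssp* genes, 6 *nspd* genes, 4 *ssq* genes and 2 *sss* genes, each with 1 probe set. A further 36 probe sets carry several symbols that include one of these families. They were not counted among the 27, no gene is named from them, and their values are given only as a group.

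The study asked how curcumin, a plant polyphenol, acts in worms with and without AHR-1, the worm homologue of the mammalian aryl hydrocarbon receptor. Each of 4 groups had 5 arrays. Wild-type worms (strain N2) or worms with the *ahr-1(ju145)* allele (strain CZ2485) were kept from the egg to day 3 on plates with 0.1% DMSO, or with 100 µM curcumin, for which DMSO at the same percentage was the solvent. Every array held total RNA of a pool of whole worms described as an independent replicate, so fewer sperm per worm and less sperm RNA per cell cannot be told apart. The labels give no sex, and a single mutant allele stands for loss of *ahr-1*. The labels number the arrays of each group from 1 to 5, and the sources used here do not say what a number stands for.

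Major sperm protein, made from the *msp* genes, is the small cytoskeletal protein by which nematode sperm crawl, and when it is released from sperm it also signals to oocytes to mature and to the gonadal sheath to contract. The *ssp*, *ssq* and *sss* genes are named as sperm-specific families of classes P, Q and S, of which class P holds short proteins related to the MSP domain. The *nspd* genes encode a group of short nematode-specific peptides expressed with the sperm genes. *C. elegans* hermaphrodites make all of their sperm around the last larval stage and then switch to oocytes, and transcription stops before the spermatids form.

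Values are log2 RMA values, so a difference of 1 is a doubling, and levels are compared only within a probe set because probes differ in how strongly they bind. Over all probe sets the first quartile of the mean values was 3.22. The means of *ssp-16*, *ssp-19*, *ssp-31*, *ssp-35*, *ssp-36* and *ssq-2* were below it, so a change in these 6 would be harder to see. The array that the study left out for its quality, *ahr-1(ju145)* with curcumin number 5, was left out here too, which leaves 19 arrays. Its values are given where they bear on a result.

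None of the 27 genes passed an adjusted p of 0.1 (limma, Benjamini-Hochberg over all probe sets) in any comparison of the groups. For *ahr-1(ju145)* against wild-type with DMSO the count was 0 of 27 beside 1.81% of all probe sets, and for curcumin in the wild-type 0 of 27 beside 0.143%. For curcumin in *ahr-1(ju145)* it was 0 of 27 beside 0.0648%, and for *ahr-1(ju145)* against wild-type with curcumin 0 of 27 beside 0.553%. The difference between the curcumin effects of the 2 strains was passed by 0 of 27 and by 0% of all probe sets. At an unadjusted p under 0.05 the counts over these 5 comparisons were 0, 0, 1, 1 and 1 of 27, where 11.2%, 6.49%, 7.45%, 8.83% and 3.36% of all probe sets had such a p. With the replicate number as a block, again 0 of 27 passed in each of the 5 comparisons, beside 3.18%, 0.747%, 0.229%, 1.26% and 0% of all probe sets. The counts at an unadjusted p under 0.05 were then 1, 2, 4, 3 and 2 of 27, beside 13.6%, 9.07%, 8.38%, 10.2% and 4.23%.

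The mean of the 27 deviations from the wild-type DMSO mean was used to set the arrays side by side. It was 0.00 ± 0.54 on the log2 scale (SD, n = 5) in wild-type DMSO, 0.09 ± 0.41 (n = 5) in wild-type curcumin, −0.10 ± 0.34 (n = 5) in *ahr-1(ju145)* DMSO and 0.17 ± 0.30 (n = 4) in *ahr-1(ju145)* curcumin. The group means thus lay within the spread of the arrays inside each group, whose pooled SD was 0.41. This is the SD of single arrays and includes the spread between replicate numbers, so it does not show that the groups were equal. The mean of *ahr-1(ju145)* curcumin also lacks the array numbered 5, which was at −0.41. The median log2 difference of the 27 genes was −0.03 for the strain with DMSO, 0.05 for curcumin in the wild-type, 0.24 for curcumin in *ahr-1(ju145)* and 0.02 for the strain with curcumin, beside 0.02, −0.00, −0.01 and 0.01 over all probe sets. Of the 27 differences, 12, 16, 18 and 15 were above 0 in this order.

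**Figure D1:**
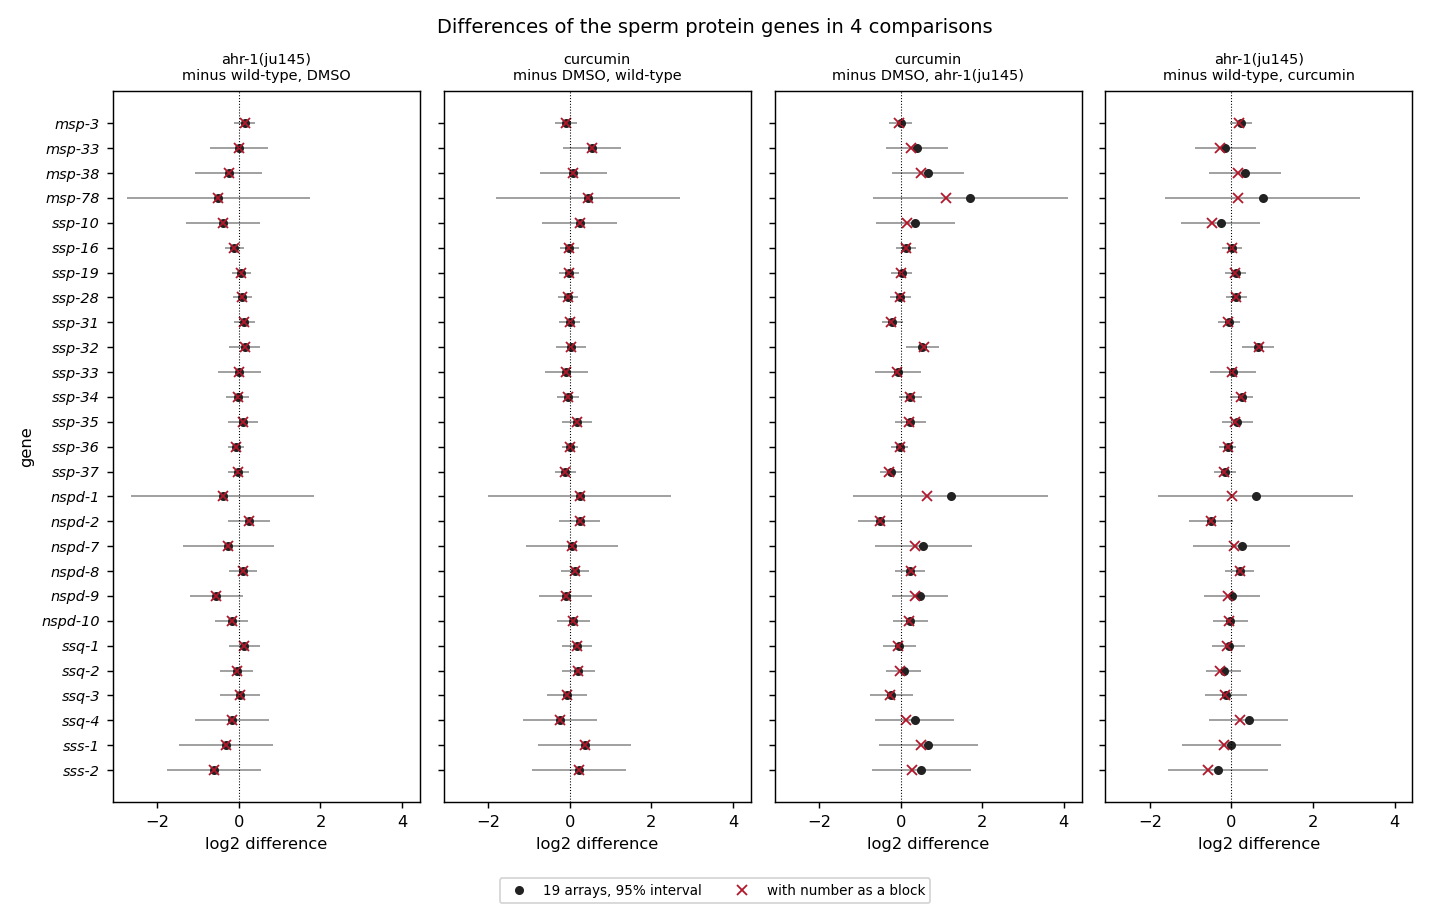
Log2 difference of each of the 27 sperm protein genes (vertical axis) in the 4 pairwise comparisons, as points with 95% confidence intervals from limma on 19 arrays. Crosses give the same difference with the replicate number as a block, and the widest intervals belong to *msp-78* and *nspd-1*, whose curcumin difference in *ahr-1(ju145)* went from 1.71 to 1.11 and from 1.23 to 0.66.

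The widest differences of the 4 pairwise comparisons were for curcumin in *ahr-1(ju145)*, in *msp-78*, an *msp* gene, and *nspd-1*, a nematode-specific peptide gene. For the strain with DMSO, *sss-2* (−0.62) and *nspd-9* (−0.55) differed more than *msp-78* (−0.50). For curcumin in the wild-type, *msp-33* (0.55) differed more than *msp-78* (0.45). The values of *msp-78* for numbers 1 to 5 were 4.09, 6.63, 8.55, 8.59 and 4.38 in wild-type DMSO and 6.55, 7.05, 8.40, 8.63 and 3.84 in wild-type curcumin. In *ahr-1(ju145)* they were 4.14, 6.80, 6.13, 8.79 and 3.90 with DMSO and 6.35, 7.77, 7.92 and 8.58 for numbers 1 to 4 with curcumin. The groups overlapped throughout, and the only group without a value under 5.00 was the one whose number 5 was left out, where that array read 4.17. The curcumin difference of *msp-78* in *ahr-1(ju145)* was 1.71 (SE 1.14, 95% interval −0.68 to 4.09, adjusted p = 0.799). It was 1.01 with all 20 arrays and 1.11 (SE 0.47, adjusted p = 0.532) with the replicate number as a block, both below the value on 19 arrays. For *nspd-1* the same difference was 1.23 on 19 arrays, 0.67 on 20 arrays and 0.66 with the block.

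Leaving out this array also moved the 27 genes as a list. Their median curcumin difference in *ahr-1(ju145)* was 0.24 on 19 arrays, 0.10 on 20 arrays and 0.15 with the block. Over the 36 probe sets with several symbols it was 0.73, 0.41 and 0.38. The mean deviation of the 27 genes on the array left out was −0.41, and on the other arrays numbered 5 it was −0.55, −0.44 and −0.35, so for these genes that array read like its same-numbered counterparts.

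*ssp-32*, a class P gene, came closest to passing. Its values were 2.79, 3.17, 3.19, 3.11 and 3.02 in wild-type DMSO and 2.90, 2.86, 2.87, 3.42 and 3.39 in wild-type curcumin. In *ahr-1(ju145)* they were 3.38, 2.64, 3.67, 2.96 and 3.35 with DMSO and 3.38, 3.71, 3.72 and 4.13 with curcumin. The group of *ahr-1(ju145)* with curcumin was the highest, and its lowest array lay just below the 2 highest of wild-type curcumin. With curcumin, *ahr-1(ju145)* minus wild-type was 0.65 (SE 0.19, 95% interval 0.25 to 1.04, adjusted p = 0.191). The array left out read 4.17, and with it the difference was 0.73 and passed (adjusted p = 0.0963, beside 0.74% of all probe sets that passed on 20 arrays), the only call of a sperm protein gene in any comparison under any alternative. Over the other alternatives the adjusted p ran from 0.126 to 0.41. The curcumin difference of *ssp-32* in *ahr-1(ju145)* was 0.53 (SE 0.19, adjusted p = 0.56), and the difference of the 2 curcumin effects was 0.50 (SE 0.26, adjusted p = 1.00).

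In the other comparisons the lowest p-values were found for members of different families. *nspd-9*, a nematode-specific peptide gene, was at 4.38, 4.91, 5.81, 4.82 and 4.92 in wild-type DMSO and at 3.75, 4.63, 4.62, 5.35 and 3.74 in *ahr-1(ju145)* DMSO. These groups overlapped, and the difference was −0.55 (SE 0.31, adjusted p = 0.545). With the replicate number as a block in limma its SE was 0.21 and its adjusted p 0.253. *msp-33* was at 2.43, 3.07, 4.02, 3.63 and 2.48 in wild-type DMSO and at 3.23, 3.37, 4.47, 4.45 and 2.88 in wild-type curcumin. Each curcumin array exceeded the DMSO array of the same number. The groups overlapped, and the difference was 0.55 (SE 0.34, adjusted p = 0.861). The block, which takes the number into account, gave *msp-33* an SE of 0.21 and an adjusted p of 0.396 (limma). *nspd-2* had the lowest p for the difference of the curcumin effects, which was −0.75 (SE 0.35, 95% interval −1.49 to −0.01, adjusted p = 1.00). The intervals of the 27 genes in these comparisons were wide enough that changes of the size of their replicate spread could have gone unseen.

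Part of these genes differed between arrays of different replicate number. An F test of the number, fitted over the 19 arrays beside the 4 group means, was added after this had been seen in the values, so it describes a pattern already noticed. It was passed by 12 of the 27 genes at an adjusted p of 0.1 (44.4%), beside 6.02% of all probe sets, and by 22 of the 36 probe sets with several symbols (61.1%). The 12 were *msp-33*, *msp-38* and *msp-78*, *ssp-10* and *ssp-35*, *nspd-1*, *nspd-7* and *nspd-9*, *ssq-2* and *ssq-4*, and both *sss-1* and *sss-2*. The families thus passed with 3 of 4 *msp*, 2 of 11 *ssp*, 3 of 6 *nspd*, 2 of 4 *ssq* and 2 of 2 *sss* genes. Both *ssp* calls, and those of *nspd-9* and *ssq-4*, were near the threshold: *ssp-10* lost its call under 17 of 31 alternatives, *ssp-35* under 15 of 30, and *nspd-9* and *ssq-4* under 18 of 31 each. *sss-2* lost it under 10 of 31 and the other 7 genes under 2 to 4. In 25 of the 27 genes the range of the 5 number means exceeded the range of the 4 group means, with *ssp-32* and *ssp-37* as the exceptions; the number means rest on fewer arrays than the group means.

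**Figure D2:**
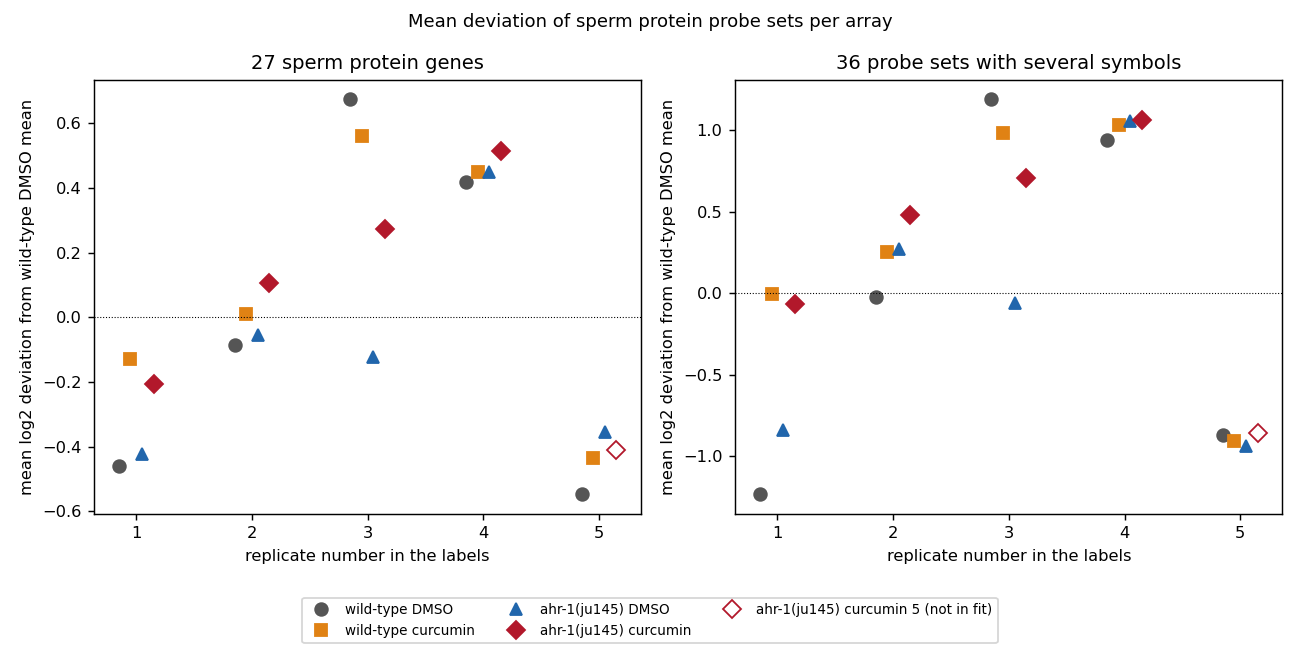
Mean log2 deviation from the wild-type DMSO mean on each of 20 arrays, by replicate number, over the 27 sperm protein genes (left) and the 36 probe sets with several symbols (right); colours and symbols mark the 4 groups and the open symbol the array left out of the fits, and the scales of the panels differ. Arrays numbered 5 lay between −0.55 and −0.35 in all 4 groups on the left and arrays numbered 4 between 0.42 and 0.52, while number 3 of *ahr-1(ju145)* DMSO was at −0.12.

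By array, the mean deviation of the 27 genes was −0.46, −0.09, 0.67, 0.42 and −0.55 for numbers 1 to 5 of wild-type DMSO. It was −0.13, 0.01, 0.56, 0.45 and −0.44 in wild-type curcumin, −0.42, −0.05, −0.12, 0.45 and −0.35 in *ahr-1(ju145)* DMSO, and −0.21, 0.10, 0.27 and 0.52 for numbers 1 to 4 of *ahr-1(ju145)* curcumin. Number 4 was high and number 5 low in each group, whichever the strain and treatment. Number 3 was high in 3 groups and not in *ahr-1(ju145)* DMSO. The 36 probe sets with several symbols were likewise high for number 4 and low for number 5 in each group, on a wider scale, from −1.23 to 1.19.

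The change was largest in *msp-78* and *nspd-1*. The number means of *msp-78* were 5.28, 7.06, 7.75, 8.65 and 4.04, a range of 4.61 or 24.4-fold (adjusted p = 0.00137, limma F test). Those of *nspd-1* were 5.06, 6.64, 7.57, 8.52 and 4.01, a range of 4.51 or 22.9-fold (adjusted p = 0.00141). On the arrays numbered 4 *msp-78* varied only from 8.58 to 8.79 over the 4 groups, and on the 3 fitted arrays numbered 5 from 3.84 to 4.38. Both strains and both treatments therefore held the high and the low values of this gene.

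The other genes that passed had smaller ranges of the number means, namely 1.25 for *msp-33*, 1.48 for *msp-38*, 1.86 for *nspd-7*, 0.93 for *nspd-9*, 1.94 for *sss-1* and 1.85 for *sss-2*. *sss-1* was at 3.28, 4.32, 5.68, 5.63 and 3.08 in wild-type DMSO, at 4.01, 4.65, 5.79, 5.63 and 3.74 in wild-type curcumin, at 3.13, 3.87, 3.81, 5.39 and 4.20 in *ahr-1(ju145)* DMSO and at 4.00, 4.80, 4.68 and 5.54 in *ahr-1(ju145)* curcumin. Number 4 was the highest array of both mutant groups, and numbers 3 and 4 stood above the other 3 in both wild-type groups. *ssq-2* had the lowest adjusted p, 0.00127, although its number means spanned only 0.74, and the arrays of one number lay close together. Among the class P genes, *ssp-10* had a range of 1.59 (adjusted p = 0.0841) and *ssp-35* one of 0.56 (adjusted p = 0.0708).

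**Figure D3:**
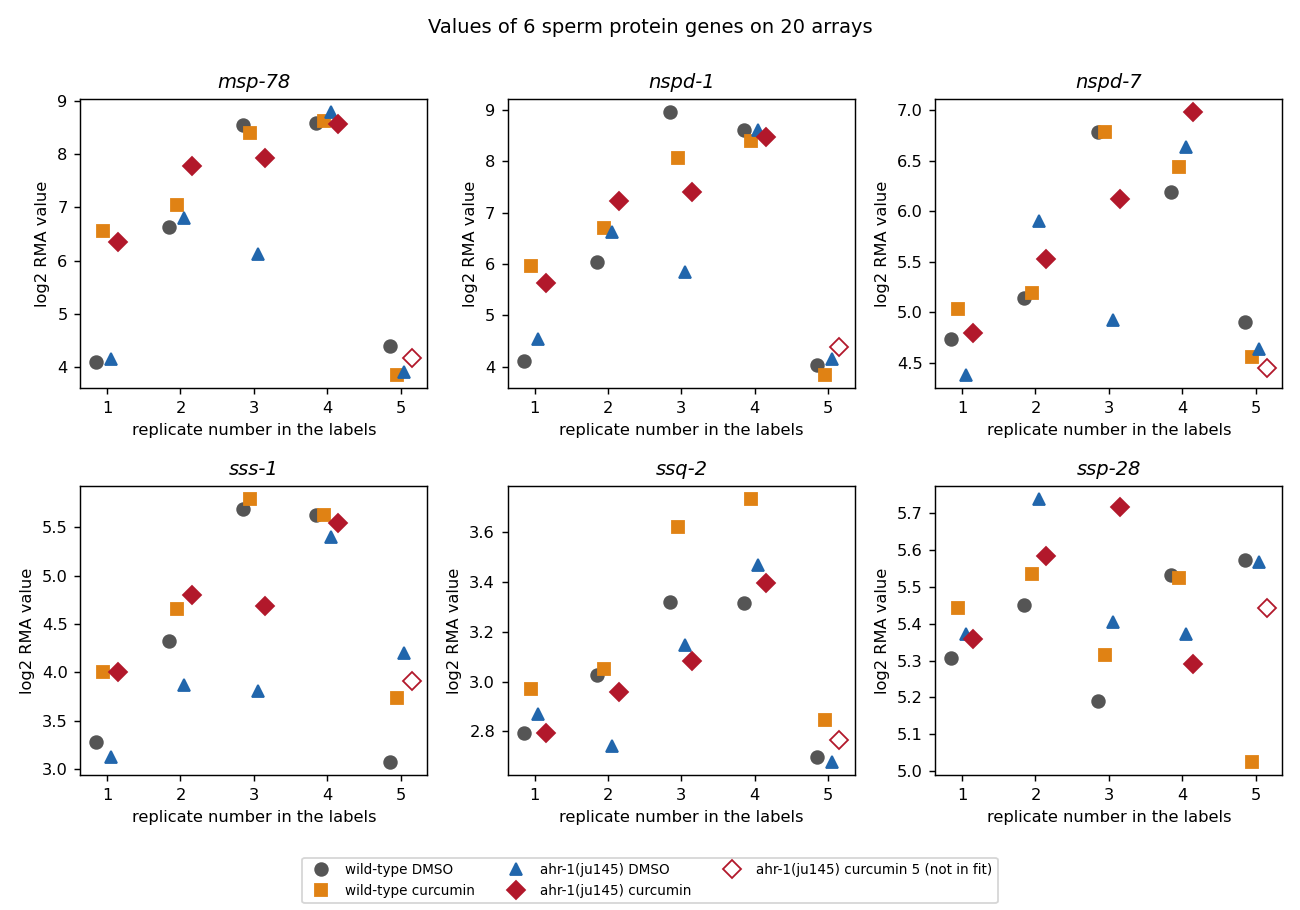
Log2 RMA values of 6 sperm protein genes on all 20 arrays by replicate number, with colours and symbols for the 4 groups, an open symbol for the array left out, and a scale of its own for each gene. *msp-78* lay between 8.58 and 8.79 on all arrays numbered 4, whereas *ssp-28*, which did not pass the test of the number, kept within 5.02 to 5.74 on the arrays fitted.

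The remaining 15 genes did not pass, and their mean deviation spanned −0.21 to 0.22 over the arrays. Among them were 9 of the 11 *ssp* genes. *ssp-28* was among the flattest of them, with number means between 5.37 and 5.58 (adjusted p = 0.787). *ssp-36* had number means 0.13 apart (adjusted p = 0.941) and *ssp-37* 0.11 apart (adjusted p = 0.921). *msp-3* was the one *msp* gene that missed the threshold, with a range of 0.34 and an adjusted p of 0.143. A p that missed the threshold does not show these genes to be even across the numbers, since several of them gave low values on all arrays.

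**Figure D4:**
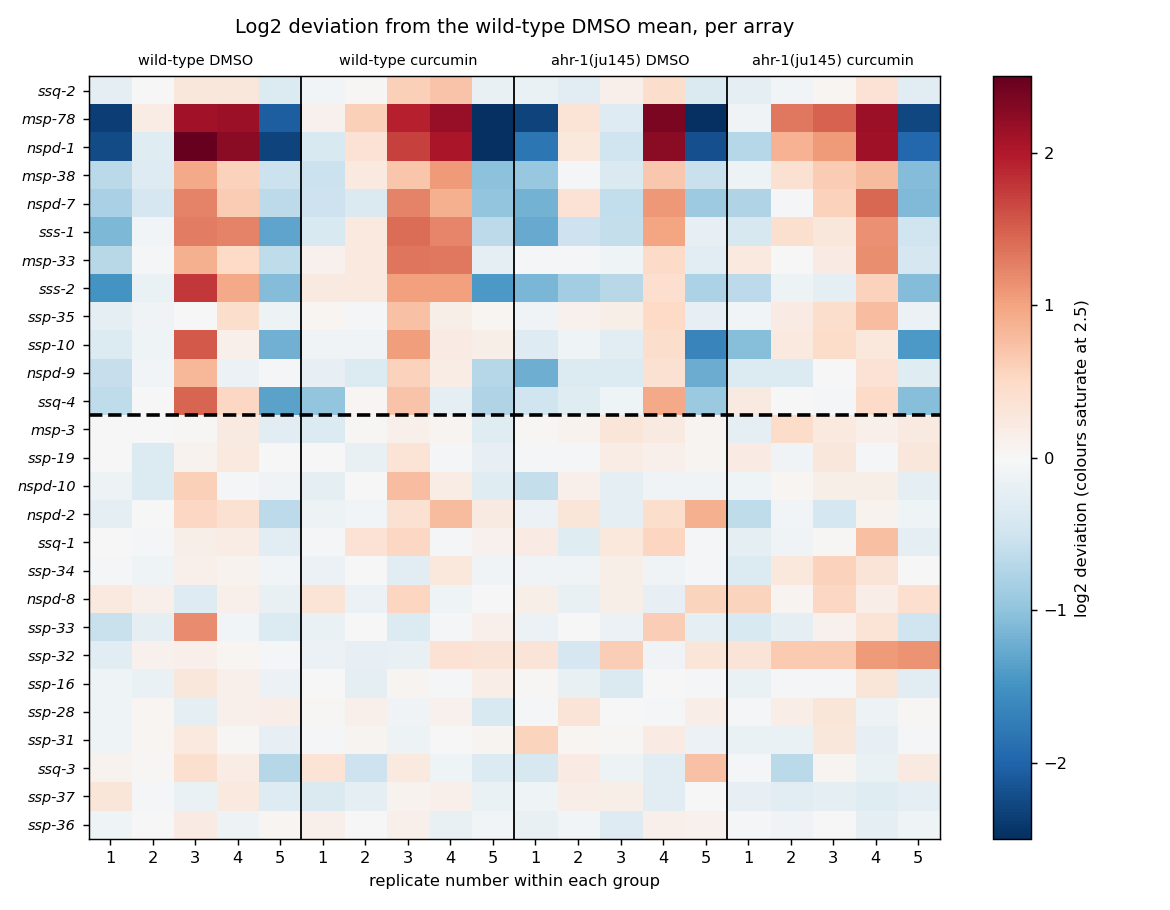
Log2 deviation of each of the 27 genes from its wild-type DMSO mean on all 20 arrays, red above and blue below, with genes ordered by the adjusted p of the replicate number and arrays by group and number. The dashed line separates the 12 genes that passed from the 15 that did not, and above it numbers 4 are mostly red and numbers 5 mostly blue in each of the 4 groups.

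The deviations of the genes from their group means were correlated over the 19 arrays, as a description, since the arrays of one number appear in all groups. Over the 351 pairs the median Pearson r was 0.34 with a range of −0.58 to 0.99, and 289 pairs were above 0. Set against the mean of the other 26 genes, *nspd-1* had an r of 0.97, *sss-1* 0.95, *msp-38*, *nspd-7* and *sss-2* 0.94 each, and *msp-78* 0.93. At the other end were *nspd-8* at −0.29, *ssp-28* at −0.01, *ssp-32* at 0.06 and *ssp-37* at 0.11. Outside the families, the single-symbol probe sets most like the mean of the 27 genes over the same 19 arrays were *K06A5.2* (r = 0.99), *ZK546.3* (0.98), *Y59H11AM.1* (0.98), *T23G11.1* (0.97), *F49C12.15* (0.97), *msrp-2* (0.97), *Y43F8C.9* (0.97), *B0025.5* (0.97), *msrp-6* (0.97) and *T16A9.5* (0.96). These 10 were selected on the same arrays for following a mean that itself varied with the number, so their own values by number add no further evidence.

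The replicate numbers allow the groups to be set side by side within a number. For *ahr-1(ju145)* minus wild-type with DMSO the mean difference of the 27 genes was 0.04, 0.03, −0.80, 0.03 and 0.19 for numbers 1 to 5. The difference of *msp-78* was 0.05, 0.17, −2.42, 0.20 and −0.49, so most of the negative strain difference lay in number 3 alone. For curcumin in the wild-type *msp-78* differed by 2.47, 0.42, −0.15, 0.04 and −0.55, with number 1 standing apart. For curcumin in *ahr-1(ju145)* it differed by 2.21, 0.98, 1.80 and −0.21 for numbers 1 to 4, and by 0.28 for number 5 with the array left out. In none of these comparisons did *msp-78* differ in the same direction in all 5 numbers. The mean difference of the 27 genes for curcumin in the wild-type was 0.33, 0.10, −0.11, 0.03 and 0.11. For curcumin in *ahr-1(ju145)* it was 0.22, 0.16, 0.39 and 0.06 for numbers 1 to 4, and −0.06 for number 5 with the array left out. Over the 12 genes that passed for the number it was above 0 there in each number (0.58, 0.36, 0.72, 0.05 and 0.02), which was not tested.

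Genes of other parts of reproduction were read beside the sperm protein genes. Per number, the mean deviation of the 27 genes from the group means was −0.35, −0.05, 0.31, 0.42 and −0.44. The 14 genes of sperm fate and transcription, among them *spe-44*, a transcription factor of the spermatogenesis program, and *fog-3*, which directs germ cells to sperm, gave number means between −0.07 and 0.07. Of these only *htas-1*, a sperm histone H2A variant, passed (adjusted p = 0.0548, means 4.15, 4.33, 4.74, 4.78 and 3.93). This list was not uniform either, so its mean does not show each gene to be flat. *alg-3* was lowest for number 5 (5.16, 4.71, 5.38, 5.38 and 4.56), and *elt-1* was highest there (7.63, 7.55, 7.46, 7.26 and 7.79). Neither of them passed. Of 28 measured genes for sperm formation, activation and fertilization, out of 31 listed, 2 passed: *spe-4*, a presenilin of the sperm organelles (adjusted p = 0.0992), and *spe-15*, a myosin of spermatid budding (adjusted p = 0.0579). The shares of both lists, 7.14% each, were near the 6.02% of all probe sets, so these counts do not set the lists apart. The number means of the list for sperm formation, activation and fertilization were −0.05, −0.03, 0.12, 0.03 and −0.09. They had the same sign as those of the 27 genes for each number, on a smaller scale.

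The lists for the reception of the MSP signal and oocyte maturation (0 of 12), oocyte and eggshell (0 of 12), germ cell and meiosis (0 of 13), male neurons and seminal fluid (0 of 8), embryo (0 of 11) and yolk (0 of 5 measured, of 6 listed) had no gene that passed for the number. Their number means stayed between −0.07 and 0.07. The list of other nematode-specific peptide genes, the *nspa*, *nspb*, *nspc* and *nspe* families, had 2 of 27, or 7.41% beside the same 6.02%. In the list for late larval cuticle and molting 3 of 10 passed (30% beside 6.02%), *mlt-11*, a protease inhibitor needed for molting (adjusted p = 0.0923), *ptr-4*, a patched-related protein (0.0864), and *fbn-1*, a fibrillin homologue (0.086). Its number means were 0.15, 0.01, −0.23, −0.09 and 0.23, opposite in sign to those of the sperm protein genes for each number, which was also so for the embryo list (0.07, 0.03, −0.06, −0.07 and 0.04, with no gene that passed). The cuticle list was not uniform: *nas-37*, an astacin protease, had number means of 6.99, 7.14, 7.31, 7.20 and 6.83, and *bli-1* and *bli-2*, cuticle collagens, were lowest for number 5 (none of the 3 passed). Whether the genes of these lists have a part in the spread of the sperm protein genes was not tested.

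**Figure D5:**
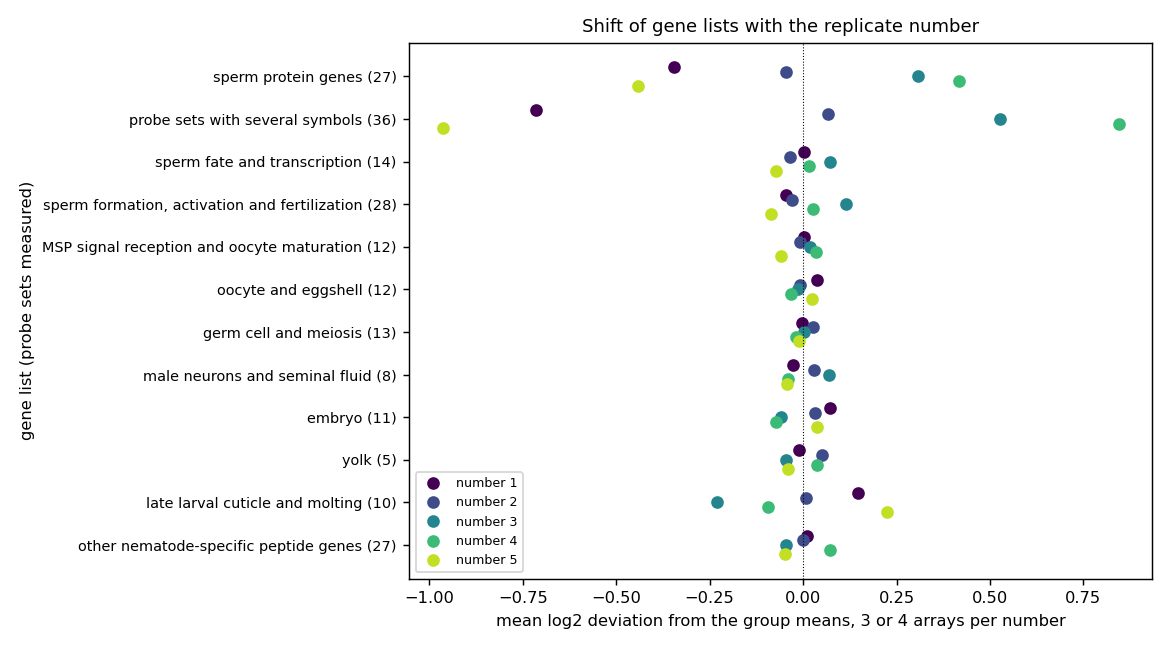
Mean log2 deviation from the group means for each replicate number (colour), over the arrays of 19 that carry it, for the sperm protein genes and 11 other sets of probe sets with their number measured. The sperm protein genes ran from −0.44 to 0.42 and the probe sets with several symbols from −0.96 to 0.84, the cuticle list from −0.23 for number 3 to 0.23 for number 5, and the other lists stayed within −0.09 to 0.12.

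In the comparisons of strain and curcumin, none of the genes in these other lists passed except in the cuticle list. There 5 of 10 genes were lower in *ahr-1(ju145)* than in wild-type with DMSO (beside 1.31% of all probe sets) and 4 of 10 were lower with curcumin (beside 0.379% of all probe sets). The list medians were −0.80 and −0.69, beside 0.02 and 0.01 over all probe sets. *mlt-11* differed by −1.50 on the log2 scale with DMSO (SE 0.32, adjusted p = 0.0357). The sperm protein genes, with list medians of −0.03 and 0.02 in the same comparisons, had none that passed.

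Of the 27 genes, 26 were found in the reference gene table by gene number, all under their present symbol, and *sss-2* was not. Of these 26, 14 had another gene of the 5 families among the 5 protein-coding genes on either side, as had 1.86% of all 19983 protein-coding genes. Within this window *msp-78* had *ssp-36* and *msp-79*, *ssp-32* had *sss-1* and *msp-77*, and *ssp-10* had *nspd-2* and *ssq-1*. In the test of the number *msp-78* passed and *ssp-36* did not, *sss-1* passed and *ssp-32* did not, and *ssp-10* passed and *nspd-2* and *ssq-1* did not. The difference between neighbours was not tested, and *ssq-1*, with number means of 3.84, 3.85, 4.10, 4.22 and 3.80, was like *ssp-10* lowest for number 5. Of the 14 genes with such a neighbour, 7 passed the test of the number and 7 did not. Among the matched genes without one, *msp-38*, *ssp-35*, *nspd-7* and *nspd-9* passed and the others did not.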

How the data were processed

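Total RNA of whole worms was hybridized to Affymetrix *C. elegans* Gene 1.0 ST arrays. The deposited values are log2 expression values that the authors made with RMA in the oligo package, which corrects background, normalizes by quantiles and summarizes probes. The annotation's genome build was not given in the sources used here. The authors' 3 tables of called probe sets hold their own fold changes and p-values and were not used. Every probe set entered a limma fit (version 3.58.1, R 4.3.3) of 19 arrays, with a mean per group and adjustment within each comparison at 0.1. The script was tested on simulated data.

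The members and lists were chosen with earlier results of these data known. The genes named were taken mainly from the 3 with the lowest p per comparison, the lowest of each family, list genes that passed, and the 10 probe sets most correlated with the members. Not all of these have their values given. Among the list genes without values, *noah-1* and *noah-2* of the cuticle list passed for the strain with DMSO and with curcumin. *nspb-4* and *nspc-18* passed for the number. Those named for the replicate number were chosen after seeing the values, as was its F test. Promoter motifs and sequences were not analysed here. The number of arrays, the spread between replicate numbers and low signal limit the precision.

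Equal numbers were taken as pairs for *ahr-1(ju145)* against wild-type with DMSO, where the deviations of all 5 same-numbered pairs correlated above 0.1 (0.114 to 0.431). The pairing comes from the numbers in the labels. Alternatives were all 20 arrays, the replicate block, array weights, other normalization, filters, variance models and thresholds, and each array left out.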

Additional observations from a re-analysis of the deposited data

Results flagged for a closer look

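Of 112 sets of values, 1 for each of the 27 genes and for their mean in each of 4 groups, 7 (6.25%) held 1 array far from the others by Dixon's test at the 95% level, which flags about 5% by chance. All 7 were of *ssp* genes. In wild-type DMSO, replicate 3 of *ssp-33* was at 5.31, where the others lay from 3.56 to 4.05. In wild-type curcumin, replicate 3 stood high in *ssp-10* at 6.47, against 5.33 to 5.62, and in *ssp-35* at 3.74, against 2.99 to 3.15. In *ahr-1(ju145)* DMSO, *ssp-33* was at 4.74 in replicate 4, against 3.87 to 4.10, and *ssp-34* at 3.60 in replicate 3, against 3.37 to 3.43. In *ahr-1(ju145)* curcumin, with 4 arrays, *ssp-10* was low in replicate 1 at 4.36, against 5.67 to 5.89, and *ssp-31* high in replicate 3 at 2.79, against 2.30 to 2.33. Numbers 3 and 4 account for the 6 high arrays and number 1 for the low one.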

How the results depend on the processing

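Whether a call reversed could not be asked of the 27 genes. None of them passed for strain or curcumin in the fit without the array left out. Their calls for the replicate number come from an F test, which has no direction. Reversal of the calls in the cuticle list was not tested. The count of 0 sperm protein genes for strain and curcumin held in 148 combinations of comparison and alternative and in the 1 other became 1 (*ssp-32*) for *ahr-1(ju145)* against wild-type with curcumin on all 20 arrays. The list medians, which have no test, moved by less than the spread between arrays, but those near 0 changed sign; with each array left out they ran from −0.13 to 0.04, −0.05 to 0.19, 0.14 to 0.30, −0.06 to 0.14 and, for the difference of the curcumin effects, 0.02 to 0.19. The strain median with curcumin was −0.04 on 20 arrays. Among probe sets at or above the median mean, which keeps fewer of the 27 genes, the medians were −0.25, 0.09, 0.42, 0.07 and 0.30. The replicate block gave 0 calls of the 27 genes in every comparison and medians of −0.03, 0.05, 0.15, 0.00 and 0.04. The calls in the cuticle list are not given with the block here. Outside the DMSO strain comparison not all same-numbered pairs correlated above 0.1, with lowest values of 0.0644, 0.0575 and 0.0843. There 3 of 5, 3 of 4 and 4 of 4 matched best with their own number. For the 27 genes alone the mean same-number correlations were 0.39, 0.60, 0.44 and 0.41 in the 4 pairwise comparisons, the DMSO strain comparison first. Their lowest values were −0.30, 0.05, 0.12 and −0.02. The rule of 0.1 thus does not rank how well the numbers pair these genes.

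The 12 genes called for the replicate number were 6 from wild-type arrays alone, 0 from *ahr-1(ju145)* arrays, 0 from DMSO arrays and 2 from curcumin arrays (beside 0.952%, 0%, 0.392% and 0.252% of all probe sets). These fits have fewer arrays. At an adjusted p under 0.05 there were 7 (3.51%). With each array left out there were 7 to 12, the lowest without *ahr-1(ju145)* DMSO replicate 4. The count depends on which arrays enter, and the number was tested after its pattern had been seen.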
